A study of Homo sapiens with 30 samples.

Results

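The 48 genes described here encode proteins that build and run mitosis: cyclins and kinases, the chromosomal passenger complex, the spindle checkpoint, anaphase regulators, kinetochore proteins, spindle motors, cytokinesis proteins, chromosome structure proteins and the transcription factor FOXM1. They were taken by name from a list of mitosis genes, with earlier results of these data known but no measured value in the rule, and all 48 were found by Ensembl identifier among the 60675 genes of the deposited table. The 48 also passed the filter on low counts, together with 16083 genes in all. The study exposed HepG2 cells, an established human hepatocellular carcinoma line, for 24 h to ethanol extracts of traditional Korean tonifying formulas and read out messenger RNA by sequencing. There were 30 libraries in 13 groups, and all library titles name the same batch, BatchE.

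The vehicle group held 3 libraries from cells given DMSO, at 0.1% in the sample labels and 2% in the series text. Palmul-tang and Sibjeondaebo-tang extracts were each given at 500 µg/mL (high), 100 µg/mL (medium) and 20 µg/mL (low), with 3 libraries per dose. Samul-tang extract was given at the same doses with 2 libraries per dose, and Sagunja-tang extract with 1 library per dose, so Sagunja-tang is described without a test. By tradition the recipe of Palmul-tang joins those of Sagunja-tang and Samul-tang, and that of Sibjeondaebo-tang extends it with further herbs. Nothing in the labels states that replicates came from separate cultures, so p-values measure the spread between these libraries, which may be technical. The codes of the table's columns put the vehicle libraries in a set of their own, the Samul-tang and Sagunja-tang libraries in another, and the Palmul-tang and Sibjeondaebo-tang libraries in yet another. What the codes stand for is not stated, so in comparisons with vehicle, treatment and column set cannot be told apart. Comparisons of doses of 1 formula, and of Sibjeondaebo-tang with Palmul-tang, stayed within a set.

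Entry into mitosis is driven by cyclin B bound to CDK1, which CDC25 phosphatases activate, and by the kinases PLK1 and Aurora A. The spindle checkpoint holds cells before anaphase until every kinetochore is attached to microtubules. The anaphase-promoting complex with its activator CDC20 then marks cyclin B and securin for destruction, and separase opens the cohesin rings that hold sister chromatids together. Most of these genes are transcribed late in the cell cycle. The DREAM complex represses them in resting and early cycling cells, and a MYB-MuvB complex with FOXM1 activates them in G2. Both bind through a promoter element called the cell cycle genes homology region (CHR), often with CCAAT boxes bound by NF-Y nearby.

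Promoter sequences are shown because most of these genes are transcribed late in the cell cycle, yet the members differ in how they moved. The members were chosen by name, not by promoter. RefSeq promoter windows (GRCh38.p14) were matched by symbol for 41 of the 48 genes. AURKA, BIRC5, BUB3, TTK, UBE2C, TPX2 and FOXM1 were not matched. In the 250 bases before the start site, on both strands, the CHR letters TTTGAA occurred in 24 of 41 member promoters (58.5%) against 13.6% of all 27305 promoters. The letters CCAAT occurred in 30 of 41 (73.2%) against 33.0% of all. Both were present in 20 of 41 (48.8%) against 4.9% of all. In the stretch of CDCA8 shown, a CHR and a CCAAT match share 1 base. A match describes letters, not a bound site. The following stretches of 120 bases are printed 5′ to 3′ on the gene's strand, with TTTGAA and CCAAT and their reverse complements TTCAAA and ATTGG in capitals. ANLN (chr7:36389742-36389861, plus strand) and DLGAP5 (chr14:55191586-55191705, minus strand) were higher in every extract library than in every vehicle library. CCNB1 (chr5:69167030-69167149, plus strand) and CDCA8 (chr1:37692396-37692515, plus strand) were lower in every one. CENPE (chr4:103198344-103198463, minus strand) and SMC4 (chr3:160399530-160399649, plus strand) were the members called different between Sibjeondaebo-tang and Palmul-tang at the high dose.
ANLN: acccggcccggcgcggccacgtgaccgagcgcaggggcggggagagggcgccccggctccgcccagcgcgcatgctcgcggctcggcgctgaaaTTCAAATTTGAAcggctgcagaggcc
DLGAP5: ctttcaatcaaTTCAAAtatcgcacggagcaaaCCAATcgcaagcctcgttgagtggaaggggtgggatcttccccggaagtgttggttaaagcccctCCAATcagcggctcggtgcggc
CCNB1: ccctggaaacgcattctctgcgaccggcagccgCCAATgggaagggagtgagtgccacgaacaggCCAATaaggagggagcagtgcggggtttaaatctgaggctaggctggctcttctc
CDCA8: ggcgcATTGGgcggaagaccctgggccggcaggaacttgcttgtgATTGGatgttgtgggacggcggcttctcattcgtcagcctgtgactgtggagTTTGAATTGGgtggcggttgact
CENPE: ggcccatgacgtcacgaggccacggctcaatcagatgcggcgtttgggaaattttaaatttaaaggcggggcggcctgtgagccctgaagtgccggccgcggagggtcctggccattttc
SMC4: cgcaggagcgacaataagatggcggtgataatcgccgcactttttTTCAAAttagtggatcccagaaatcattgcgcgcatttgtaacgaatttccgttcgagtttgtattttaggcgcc
In ANLN the CHR letters stood on both strands, side by side. In the stretches shown, CCNB1 carried 2 CCAAT matches and no CHR match, CDCA8 carried 3 CCAAT matches and 1 CHR match, and CENPE carried neither. Among the members with a matched promoter, 8 of 13 called higher with high-dose Palmul-tang held the CHR letters in the 250 bases, as did 6 of 9 called lower and 10 of 19 not called. CCAAT was present in 9 of 13, 8 of 9 and 13 of 19.

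Levels are given in CPM, the usual depth-scaled unit of counts, with TMM factors between libraries. Per kilobase of transcript in the vehicle libraries, the highest members were the kinases PLK1 (139.8 CPM per kb) and AURKA (98.28), followed by the DNA topoisomerase TOP2A (87.52) and the spindle assembly factor TPX2 (79.34). The lowest were the kinetochore motor CENPE (4.813 CPM per kb), the separase gene ESPL1 (5.577) and the spindle pole gene ASPM (7.468). Every member was thus measured in every library, and the lowest single value was 16.8 CPM for CDC25C. Over the 30 libraries the coefficient of variation ran from 3.99% for the checkpoint gene BUB3 to 12.3% for CENPE.

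Library totals ran from 21570416 to 37707232 counts. The hepatocyte genes ALB (8390 to 12000 CPM) and AFP (13100 to 17500 CPM) were abundant in all 30 libraries, as fits the labelled line. The leukocyte markers HLA-DRA and PTPRC were at 0 in 30 and 29 libraries. LYZ, on the same list, stood at 1020 to 1760 CPM. Sibjeondaebo-tang low replicate 3 stood apart: COL1A1 was 8.29 CPM, and COL1A2 (6.96 CPM) and DCN (1.9 CPM) were at 0 in 28 and 29 libraries. The fibroblast markers summed to 29.9 CPM there and to 3.97 to 7.72 CPM elsewhere, and their part in the results was not tested. Over the 24 pairs of replicates, counts differed by 2.92 to 30.9 times the counting noise in variance, most between the Samul-tang medium libraries. No pair looked like 1 library deposited in duplicate.

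Against vehicle, members moved in both directions and by small amounts. The called differences, from edgeR's quasi-likelihood test with Benjamini-Hochberg adjusted p under 0.05 over all tested genes, were between 0.12 and 0.44 in size on the log2 scale. All comparisons with vehicle share the same 3 vehicle libraries, so they are not independent of each other. In these bulk libraries, a larger share of cells in G2 and mitosis and more transcript per such cell cannot be told apart. The share of counts from mitochondrial genes was 12.4% to 14.5% in the vehicle libraries and 14.8% to 19.7% in the Palmul-tang and Sibjeondaebo-tang libraries, all of which lay above vehicle. It was 11.2% to 16.7% with Samul-tang and 14.1% to 15.7% with Sagunja-tang, overlapping vehicle. Its part in the differences from vehicle was not tested. The heatmap of differences from vehicle shows the pattern for all members.

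**Figure D1:**
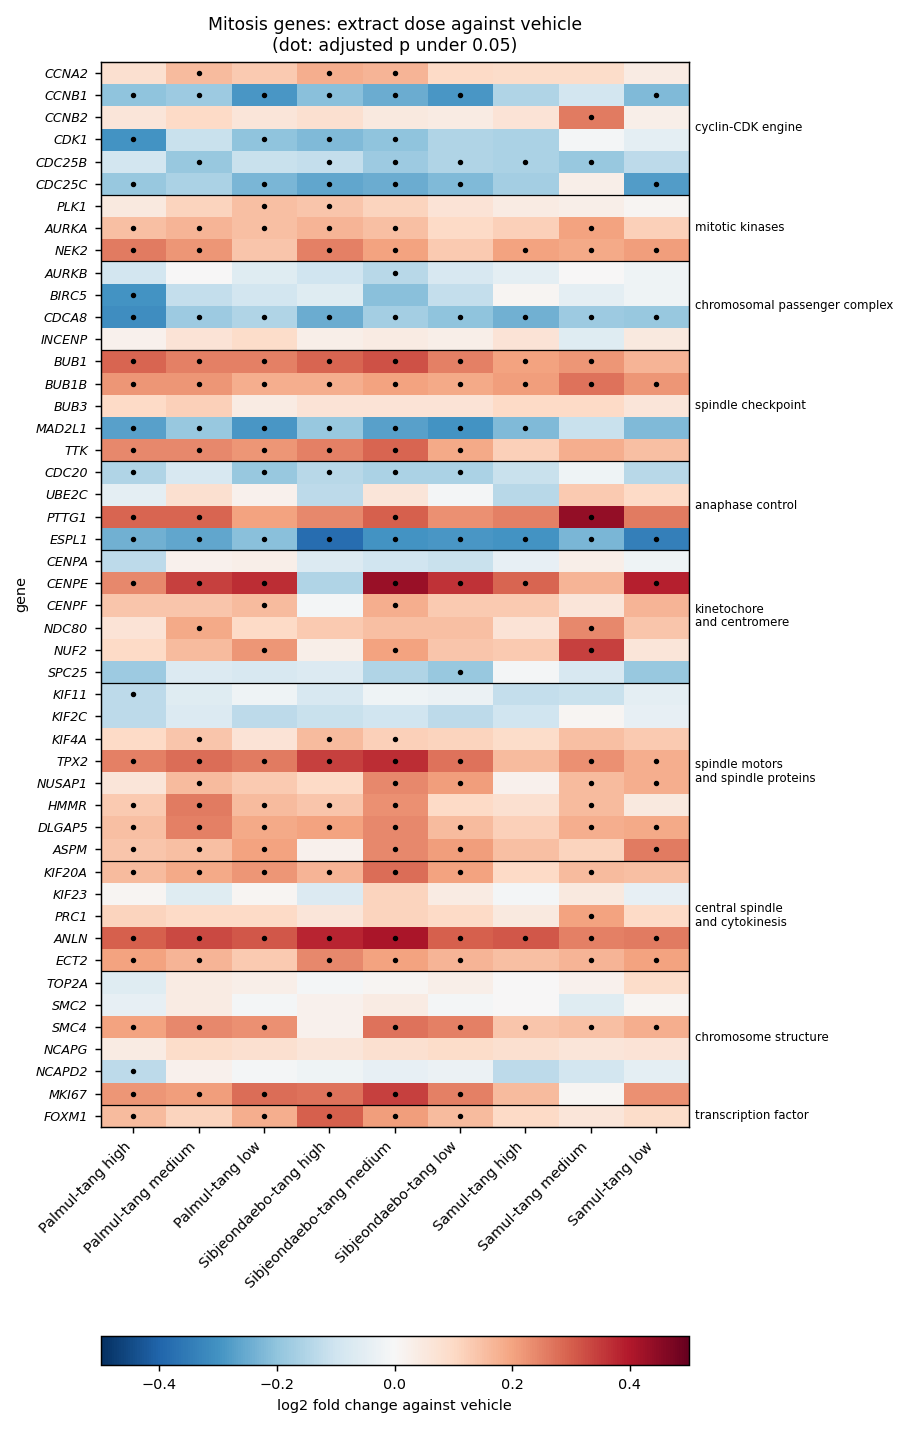
Log2 difference in expression from vehicle for the 48 mitosis genes (rows, by role) in each tested extract group (columns, by formula and dose), with a dot where the adjusted p was under 0.05. Rows such as ANLN, BUB1 and TPX2 are higher and CCNB1, CDCA8 and ESPL1 lower in the extract groups, and CENPE is lower only in the high-dose Sibjeondaebo-tang column.

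Palmul-tang at the high dose had 17 of the 48 members called higher and 10 called lower, beside 16.3% and 15.6% of all tested genes. Its median member difference was 0.07 (log2) against -0.01 or 0 for all genes in these comparisons. Leaving out vehicle replicate 2 left 10 higher. The lower count was 6 without vehicle replicate 1, vehicle replicate 2 or Palmul-tang high replicate 1, and 5 without Palmul-tang high replicate 2. It was also 6 with no filter on low counts. Of the 27 calls, 13 held with each library left out in turn: CCNB1, CDK1, NEK2, CDCA8, BUB1, BUB1B, MAD2L1, ESPL1, CENPE, TPX2, ANLN, ECT2 and SMC4. Below, a call that held in this way is said to have held, and any other call is said to be fragile.

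At the medium dose of Palmul-tang, 20 members were higher and 5 lower, beside 11.6% and 10.8% of all genes, with a median of 0.11. The lower count was near its background share. The counts were 12 and 3 without vehicle replicate 2. Without vehicle replicate 3, 13 were higher. Without Palmul-tang medium replicate 3 they were 13 and 2. The low dose gave 17 calls upward and 7 downward, beside 11.5% and 11.7%, with a median of 0.09. There 10 were higher without Palmul-tang low replicate 3, and 4 were lower without vehicle replicate 1, Palmul-tang low replicate 1 or Palmul-tang low replicate 2. The calls that held numbered 11 of 25 at the medium dose and 13 of 24 at the low dose.

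Sibjeondaebo-tang at the high dose had 16 members higher and 8 lower, beside 19.3% and 16.7% of all genes, with a median of 0.03. The lower count was near its background share. The medium dose had 22 higher and 9 lower, beside 15.3% and 14.8%, with a median of 0.11. With any 1 library left out, the high dose had 11 to 15 members higher and 7 lower, and the medium dose 16 to 22 higher and 6 to 11 lower. At these doses 14 of 24 and 20 of 31 calls held. The low dose gave 14 calls upward and 8 downward, beside 11.5% and 11.5%, with a median of 0.09. The low-dose counts were 9 and 6 without replicate 3, the library with fibroblast markers. Without vehicle replicate 2, 9 were higher, and 5 were lower without vehicle replicate 1, without Sibjeondaebo-tang low replicate 2, or with no filter on low counts. There 13 of 22 calls held.

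Samul-tang, with 2 libraries a dose, had 6 members higher and 4 lower at the high dose, beside 9.82% and 8.69% of all genes, with a median of 0.07. Both counts were near the background shares. Of these 10 calls, BUB1B, CENPE and ANLN held. Without vehicle replicate 3 or either Samul-tang high library, 3 were higher. Without vehicle replicate 1, 2 were lower, and without either Samul-tang high library 1 was. Fitted on the compared groups alone, 10 were higher.

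At the medium dose of Samul-tang, 17 members were higher and 3 lower, beside 10.3% and 9.57% of all genes, with a median of 0.08. Those counts rested on Samul-tang medium replicate 2: without it 3 were higher and 0 lower. They were 11 higher without vehicle replicate 2, and 10 higher with 1 lower without vehicle replicate 3. With no filter on low counts 1 was lower. When only the compared groups were fitted, no member was called, and 261 genes were called in all in place of 3188. The low dose gave 10 calls upward and 4 downward, beside 6.47% and 4.79%, with a median of 0.06. Without Samul-tang low replicate 3 these were 6 and 0 and the median 0.11, and without Samul-tang low replicate 2 only 3 were higher. Without vehicle replicate 2 they were 4 and 2, without vehicle replicate 3, 6 were higher, and without vehicle replicate 1, 2 were lower. BUB1B and ANLN held at the medium dose, and CENPE, ASPM and ANLN at the low dose.

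In 8 members every 1 of the 27 extract libraries, Sagunja-tang included, lay above every vehicle library, as did 5.25% of all tested genes. These were the kinases AURKA and NEK2, the checkpoint genes BUB1 and BUB1B, TPX2, DLGAP5, ANLN and FOXM1. In 3 members, CCNB1, CDCA8 and ESPL1, every extract library lay below every vehicle library, as did 4.97% of all tested genes. This count of 3 was near the background share.

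Among the 6 genes of the cyclin-CDK engine, most calls were lower. CCNB1, the mitotic cyclin, was 118.5, 125.1 and 119.4 CPM in the vehicle libraries and 105.1, 102.7 and 107.7 CPM with high-dose Palmul-tang. The 27 extract libraries ran from 94.81 to 115.2 CPM with a median of 104.1, so the groups did not overlap. CCNB1 fell by 0.20 (log2, SE 0.0547, adjusted p = 0.00482, edgeR) with high-dose Palmul-tang and by 0.21 (SE 0.0547, adjusted p = 0.00367) with high-dose Sibjeondaebo-tang, and both calls held. At the low doses it fell by 0.29 with each of these formulas. With Samul-tang it was called at the low dose (-0.22, fragile) and not at the high (-0.15) or medium (-0.09) dose.

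CDK1, the kinase that cyclin B activates, was 73.53, 70.06 and 68.5 CPM with vehicle and 59.03, 57.42 and 55.36 CPM with high-dose Palmul-tang, without overlap. It fell by 0.30 (log2, SE 0.0561, adjusted p = 0.000112, edgeR) there and by 0.22 with high-dose Sibjeondaebo-tang, and both calls held. It was not called at any Samul-tang dose. The phosphatase genes CDC25B and CDC25C, whose products switch CDK1 on, went the same way where called. CDC25C fell with Sibjeondaebo-tang by 0.26, 0.25 and 0.22 from the high to the low dose, of which the high-dose call held. CDC25B fell by 0.12, 0.18 and 0.15, of which the medium-dose call held. Cyclin A2 did the opposite: CCNA2 was called higher with medium-dose Palmul-tang (0.16) and with high-dose (0.18) and medium-dose (0.17) Sibjeondaebo-tang, all fragile. CCNB2, the second B-type cyclin, was called only with medium-dose Samul-tang (0.26, fragile).

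The 3 mitotic kinases were called higher or not at all. AURKA, which matures centrosomes, had vehicle values from 216.5 to 229.3 CPM and extract values from 231.8 to 269.8 CPM with a median of 246. Its differences were 0.15 with high-dose Palmul-tang (adjusted p = 0.0228, edgeR) and 0.17 with high-dose Sibjeondaebo-tang (adjusted p = 0.00933), both fragile. Without Palmul-tang high replicate 3 the first was 0.08. NEK2, which separates centrosomes, rose by 0.26 (SE 0.0544, adjusted p = 0.000523) and 0.25 (adjusted p = 0.000492) at these doses, and both calls held. PLK1, the most abundant of the set per kilobase, was 0.05 with high-dose Palmul-tang (95% interval -0.06 to 0.15) and not called. Its 2 calls, with low-dose Palmul-tang (0.15) and high-dose Sibjeondaebo-tang (0.14), were fragile.

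The chromosomal passenger complex corrects faulty microtubule attachments. Of its 4 members CDCA8, which encodes the subunit borealin, was lower in all extract libraries: 61.28, 59.64 and 63.17 CPM with vehicle against 47.22 to 57.66 CPM (median 53.48). With high-dose Palmul-tang it was 50.92, 47.22 and 50.29 CPM, a fall by 0.31 (log2, SE 0.0526, adjusted p = 3.61e-05, edgeR). With high-dose Sibjeondaebo-tang it fell by 0.25 (adjusted p = 0.000438), and both calls held. The other differences from vehicle ran from -0.24 to -0.15, all called, and of these the call with low-dose Sibjeondaebo-tang held. BIRC5 (survivin) was called only with high-dose Palmul-tang (-0.30, fragile) and the kinase AURKB only with medium-dose Sibjeondaebo-tang (-0.14, fragile). The scaffold INCENP was not called in any comparison with vehicle.

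Spindle checkpoint genes split. BUB1, a checkpoint kinase, was 97.46, 93.4 and 94.16 CPM with vehicle and 115.0, 122.7 and 110.6 CPM with high-dose Palmul-tang. All 27 extract libraries (104.8 to 124.8 CPM, median 112.2) lay above the vehicle libraries. BUB1 rose by 0.29 with high-dose Palmul-tang (SE 0.0561, adjusted p = 0.000183, edgeR) and by 0.29 with high-dose Sibjeondaebo-tang (adjusted p = 0.000182), and both calls held. BUB1B (BubR1) was called at every dose of the 3 tested formulas, between 0.18 and 0.27, and all of these calls held except that with low-dose Samul-tang, which ended without Samul-tang low replicate 2 (adjusted p = 0.0671). TTK, the kinase that starts checkpoint signalling, was called at every dose of Palmul-tang and Sibjeondaebo-tang (0.19 to 0.29), and the medium-dose Sibjeondaebo-tang call held.

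MAD2L1, which encodes the inhibitor that the checkpoint loads onto CDC20, moved the other way. It was 49.8 to 59.85 CPM with vehicle and 42.01 to 54.48 CPM with extracts (median 46.47), so the ranges overlapped. It fell by 0.27 with high-dose Palmul-tang (log2, SE 0.0675, adjusted p = 0.00233, edgeR; held) and by 0.30 with low-dose Sibjeondaebo-tang (held). BUB3 was not called in any comparison with vehicle.

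Of the 4 anaphase genes, ESPL1, which encodes separase, fell at every dose of the 3 tested formulas. It was 36.73, 36.05 and 38.03 CPM with vehicle and 26.77, 30.88 and 27.13 CPM with high-dose Sibjeondaebo-tang. The 27 extract libraries ran from 26.77 to 34.73 CPM with a median of 30.72, below all vehicle libraries. It fell by 0.38 with high-dose Sibjeondaebo-tang (log2, SE 0.0674, adjusted p = 4.52e-05, edgeR), and the other differences ran from -0.34 to -0.21. The calls held at the 3 Sibjeondaebo-tang doses and at the high and medium Palmul-tang doses. Without Samul-tang medium replicate 2, the ESPL1 difference at that dose was -0.08 in place of -0.23.

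CDC20, the activator that separase release depends on, was called lower at 5 doses, by 0.19 at most, and only the low-dose Palmul-tang call held. PTTG1, which encodes securin, the inhibitor of separase, was called higher at 4 doses: 0.29 with high-dose and 0.29 with medium-dose Palmul-tang, 0.30 with medium-dose Sibjeondaebo-tang and 0.44 with medium-dose Samul-tang. All 4 calls were fragile, and the medium-dose Samul-tang libraries were 108.9 and 69.78 CPM. PTTG1 has near-identical intronless copies in the genome, and its counts are uncertain to the extent that reads were shared with them. UBE2C, the ubiquitin-conjugating enzyme of the anaphase-promoting complex, was not called.

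Kinetochore genes were called seldom apart from CENPE, the motor that carries chromosomes to the spindle equator. CENPE was 42.71, 39.62 and 42.02 CPM with vehicle. It was 49.62, 49.8 and 47.38 CPM with high-dose Palmul-tang and 54.19, 52.88 and 53.33 CPM with low-dose Palmul-tang. With Sibjeondaebo-tang it was 53.36, 57.87 and 55.91 CPM at the medium dose and 53.58, 51.44 and 53.89 CPM at the low dose. These groups lay above vehicle without overlap. High-dose Sibjeondaebo-tang, at 40.84, 38.55 and 32.99 CPM, overlapped vehicle.

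Against vehicle, CENPE rose by 0.24, 0.34 and 0.37 with Palmul-tang from the high to the low dose, and by 0.43 and 0.36 with medium- and low-dose Sibjeondaebo-tang, and these calls held. With high-dose Sibjeondaebo-tang the difference was -0.15 (SE 0.0583, adjusted p = 0.0501, edgeR) and was not called. The outer kinetochore genes NDC80 and NUF2 were called at 2 and 3 doses, up to 0.34 for NUF2 with medium-dose Samul-tang, all fragile. CENPF was called with low-dose Palmul-tang (0.16) and medium-dose Sibjeondaebo-tang (0.18), both fragile. SPC25, of the same complex as NDC80, was called lower with low-dose Sibjeondaebo-tang (-0.19, fragile). CENPA, the histone variant of centromeres, was not called.

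Spindle proteins were called higher more often than lower. TPX2, which activates Aurora A on microtubules, was 281.8, 276.6 and 273.9 CPM with vehicle and 299.6 to 379.3 CPM (median 335.7) with extracts, without overlap. It rose by 0.25 with high-dose Palmul-tang (SE 0.0543, adjusted p = 0.000609, edgeR) and by 0.34 with high-dose Sibjeondaebo-tang (adjusted p = 1.3e-05), and all 6 calls in these formulas held. With high-dose Samul-tang the difference was 0.16 (adjusted p = 0.0677) and not called. DLGAP5 (HURP), which stabilises kinetochore fibres, rose at every dose of Palmul-tang and Sibjeondaebo-tang by 0.15 to 0.25, with the calls at high-dose Palmul-tang and low-dose Sibjeondaebo-tang fragile. HMMR was called at 6 doses (up to 0.26), of which the medium-dose Palmul-tang and Sibjeondaebo-tang calls held. NUSAP1 was called at 5 doses (up to 0.24), of which the medium- and low-dose Sibjeondaebo-tang calls held. The motor genes KIF11 (-0.13 with high-dose Palmul-tang, fragile) and KIF4A (0.12 to 0.16 at 3 doses, all fragile) moved in opposite directions, and KIF2C was not called.

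Among cytokinesis genes ANLN, which encodes the furrow scaffold anillin, gave the clearest difference of the set. It was 127.9, 119.8 and 125.1 CPM with vehicle, 152.5, 153.9 and 151.9 CPM with high-dose Palmul-tang, and 160.8, 152.0 and 170.7 CPM with high-dose Sibjeondaebo-tang. All 27 extract libraries (143.1 to 170.7 CPM, median 154.1) lay above vehicle. ANLN rose by 0.30 with high-dose Palmul-tang (log2, SE 0.044, 95% interval 0.21 to 0.39, adjusted p = 4.99e-06, edgeR). It rose by 0.38 with high-dose Sibjeondaebo-tang (SE 0.044, adjusted p = 9.07e-08) and by 0.31 with high-dose Samul-tang (adjusted p = 3.92e-05). It was called at all 9 doses of these formulas, at 0.25 to 0.41, and all 9 calls held. The call with medium-dose Samul-tang ended when those groups were fitted alone (adjusted p = 0.0815).

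KIF20A, a motor of the central spindle, was called at every dose of Palmul-tang and Sibjeondaebo-tang (0.16 to 0.28). Its calls held with low-dose Palmul-tang and with medium- and low-dose Sibjeondaebo-tang, and the others were fragile. ECT2, which activates the small GTPase of the cleavage furrow, was called higher at 7 doses by 0.17 to 0.24. Its calls held with high-dose Palmul-tang and with high- and medium-dose Sibjeondaebo-tang, and the others were fragile. PRC1, the bundler of central spindle microtubules, was called only with medium-dose Samul-tang (0.20, fragile), and KIF23 was not called. Of the 6 chromosome structure genes, the condensin subunit SMC4 was called higher at every dose except high-dose Sibjeondaebo-tang. Its calls with Palmul-tang and Sibjeondaebo-tang held, and those with Samul-tang were fragile. Its partner SMC2 and the condensin subunit NCAPG were not called. NCAPD2 was called lower with high-dose Palmul-tang (-0.13, fragile). MKI67, the proliferation marker Ki-67, was 346.0, 347.8 and 372.7 CPM with vehicle. It rose by 0.27 with high-dose Sibjeondaebo-tang (SE 0.0719, adjusted p = 0.00471, edgeR), and this call held. MKI67 was called at each dose of Palmul-tang and Sibjeondaebo-tang and at none of Samul-tang. Its calls with high- and medium-dose Palmul-tang and with low-dose Sibjeondaebo-tang were fragile. TOP2A, the most abundant member in CPM, had vehicle values from 493.4 to 523.3 CPM and extract values from 466.7 to 561.9 CPM. Of the 27 extract libraries 5 lay above and 4 below the vehicle range. TOP2A was not called anywhere, with differences from vehicle of -0.06 to 0.09.

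FOXM1, the activator of many of these promoters, was 159.8, 157.8 and 163.0 CPM with vehicle and 187.5, 197.3 and 205.9 CPM with high-dose Sibjeondaebo-tang. It rose by 0.30 there (log2, SE 0.0496, adjusted p = 2.13e-05, edgeR; held). With high-dose Palmul-tang the difference was 0.16 (adjusted p = 0.0159, fragile), and with high-dose Samul-tang 0.10 (adjusted p = 0.222, not called). The plot of levels for ANLN, BUB1, CCNB1 and ESPL1 sets members that lay above vehicle beside members that lay below.

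**Figure D2:**
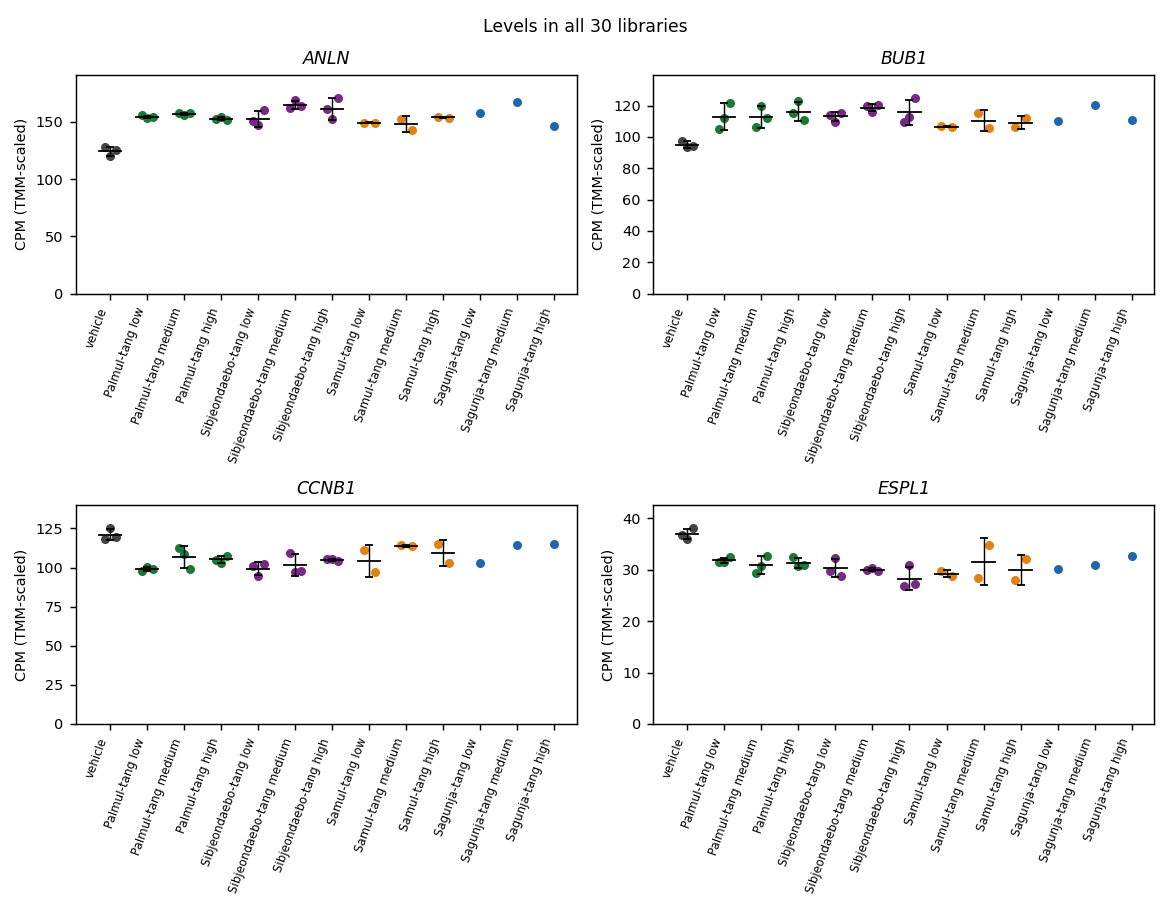
Expression in CPM (vertical axis) of ANLN, BUB1, CCNB1 and ESPL1 in each of the 30 libraries (points) by group, with the mean and SD of groups of 2 or more libraries. ANLN and BUB1 lie above, and CCNB1 and ESPL1 below, the 3 vehicle libraries in all 27 extract libraries.

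Genes of earlier cell cycle stages were described in the same libraries by lists named for their function. Of 36 S phase genes (origin licensing, DNA replication and their E2F activators), 0 were called higher and 23 lower with high-dose Palmul-tang, with a median of -0.24, beside 16.3% and 15.6% of all genes. With high-dose Sibjeondaebo-tang 1 was higher and 27 lower (median -0.25), beside 19.3% and 16.7%, and with high-dose Samul-tang 0 and 23 (median -0.22), beside 9.82% and 8.69%. Summed over the list, S phase genes came to 3160 to 3270 CPM with vehicle and 2750 to 3000 CPM with extracts. The summed members came to 4851 to 5011 CPM with vehicle and 5056 to 5557 CPM with extracts; the former total was lower and the latter higher in all extract libraries. The activator E2F1 fell by 0.54 and E2F2 by 0.75 with high-dose Palmul-tang. The helicase subunits MCM2 and MCM3 fell by 0.40 and 0.36. The S phase genes called higher were RRM2 with high-dose Sibjeondaebo-tang (0.14) and GINS2 (0.25) and CCNE2 (0.39) with medium-dose Samul-tang. At that Samul-tang dose 12 were lower, beside 10.3% higher and 9.57% lower of all genes. With medium- and low-dose Palmul-tang 24 and 26 were lower, beside 10.8% and 11.7% of all genes. With medium- and low-dose Sibjeondaebo-tang 25 and 23 were lower, beside 14.8% and 11.5%, and with low-dose Samul-tang 15, beside 4.79%. These lists were compared with the same vehicle libraries and column set as the members.

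Of 13 tested genes of G1 control, 4 were called lower and 0 higher with high-dose Palmul-tang, beside 15.6% and 16.3% of all genes: CDK2 (-0.33), CDKN2C (-0.39), CDK4 (-0.24) and CCND1 (-0.26). With high-dose Sibjeondaebo-tang 4 were lower, beside 16.7%, and RB1, the retinoblastoma repressor, was higher (0.28), beside 19.3%. A list of 102 other mitosis genes was called 19 higher and 19 lower with high-dose Palmul-tang (median 0.02), beside 16.3% and 15.6% of all genes. It was called 22 and 17 with high-dose Sibjeondaebo-tang, beside 19.3% and 16.7%, and 8 and 11 with high-dose Samul-tang, beside 9.82% and 8.69%. These counts were near the background shares. Among them with high-dose Palmul-tang the cohesin subunit SMC1A (0.26), the MuvB subunit LIN54 (0.35) and the microtubule polymerase CKAP5 (0.19) rose. The cohesin stabiliser CDCA5 (-0.28), the ubiquitin ligase subunit ANAPC11 (-0.60), the NDC80 complex subunit SPC24 (-0.47) and TFDP2 (-0.28) fell.

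**Figure D3:**
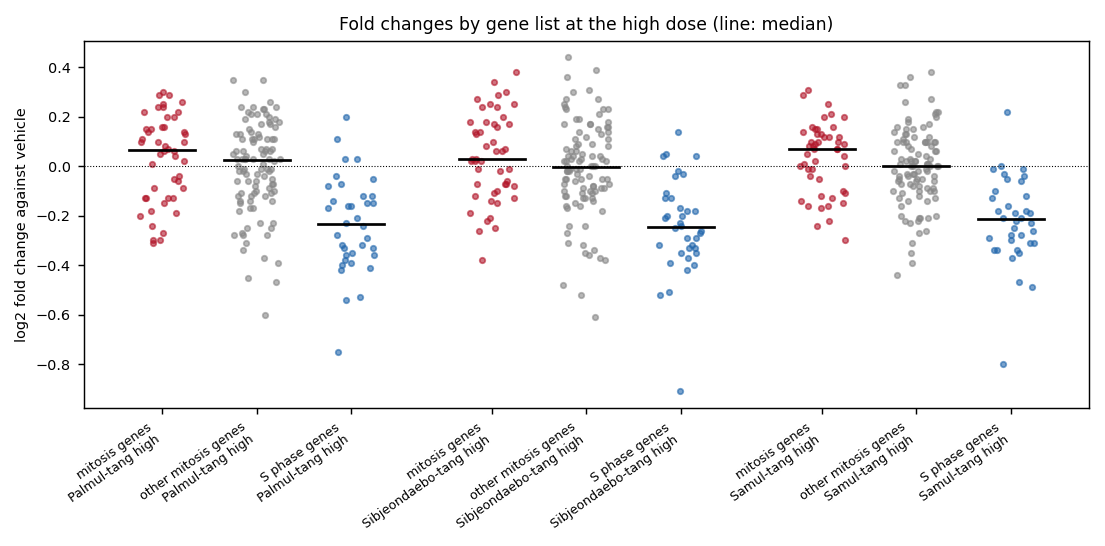
Log2 difference from vehicle at the high dose (vertical axis) for each gene (points) of the 48 members, the 102 other mitosis genes and the 36 S phase genes, by formula, with lines at the list medians. The S phase genes sit mostly below 0 (median -0.24 with Palmul-tang), and the members on both sides of it (median 0.07).

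Comparisons of doses within a formula did not use the vehicle libraries. With Palmul-tang, no member was called between the high and the low dose by edgeR, beside 3.75% higher and 3.03% lower of all genes. At an unadjusted p under 0.05, 1 member was higher and 5 were lower, beside 1584 and 1391 of all 16083 genes. Member differences ran from -0.22 to 0.12. With Samul-tang none was called, beside 0.709% higher and 0.715% lower of all genes. There 0 members were higher and 2 lower at an unadjusted p under 0.05, beside 717 and 883 of all 16083 genes. Member differences with Samul-tang ran from -0.24 to 0.18. With Sibjeondaebo-tang 1 member was higher and 3 were lower at the high dose, beside 10.4% and 9.44% of all genes. The members' counts were below both background shares.

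CENPE showed the largest difference between Sibjeondaebo-tang doses. Its mean was 37.46 CPM at the high and 52.97 CPM at the low dose, and all 3 high-dose libraries lay below all 3 low-dose libraries. The difference was -0.50 (log2, SE 0.0572, 95% interval -0.62 to -0.38, adjusted p = 9.95e-08, edgeR), and ran from -0.59 to -0.44 over the alternatives. SMC4 was 152.5, 143.8 and 141.7 CPM at the high and 167.1, 165.1 and 179.6 CPM at the low dose, a difference of -0.22 (SE 0.0437, adjusted p = 0.000347). ASPM was 83.39, 81.33 and 82.74 CPM at the high and 93.32, 92.41 and 95.66 CPM at the low dose, a difference of -0.19 (SE 0.0523, adjusted p = 0.0109). The vehicle libraries stood at 147.5, 139.4 and 144.0 CPM for SMC4 and 81.9, 78.47 and 83.55 CPM for ASPM, so the high-dose libraries overlapped vehicle and the low-dose libraries lay above it. For CENPE, 2 of the high-dose libraries lay below all vehicle libraries. The 3 calls held. The mitochondrial share of counts was 17.21% to 19.35% in the high-dose and 15.71% to 17.04% in the low-dose libraries, without overlap, and its part in these differences was not tested.

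FOXM1 went the other way, with 187.5, 197.3 and 205.9 CPM at the high and 171.6, 179.9 and 184.6 CPM at the low dose of Sibjeondaebo-tang. The difference was 0.14 (SE 0.0494, adjusted p = 0.0423, edgeR), the only member called higher. This call ended under DESeq2 (adjusted p = 0.0764), under median-of-ratios scaling (0.0912) and with no filter on low counts (0.267). It also ended without Sibjeondaebo-tang high replicate 1 (0.0666), 2 (0.096) or 3 (0.328), and without low replicate 1 (0.188) or 2 (0.0885).

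**Figure D4:**
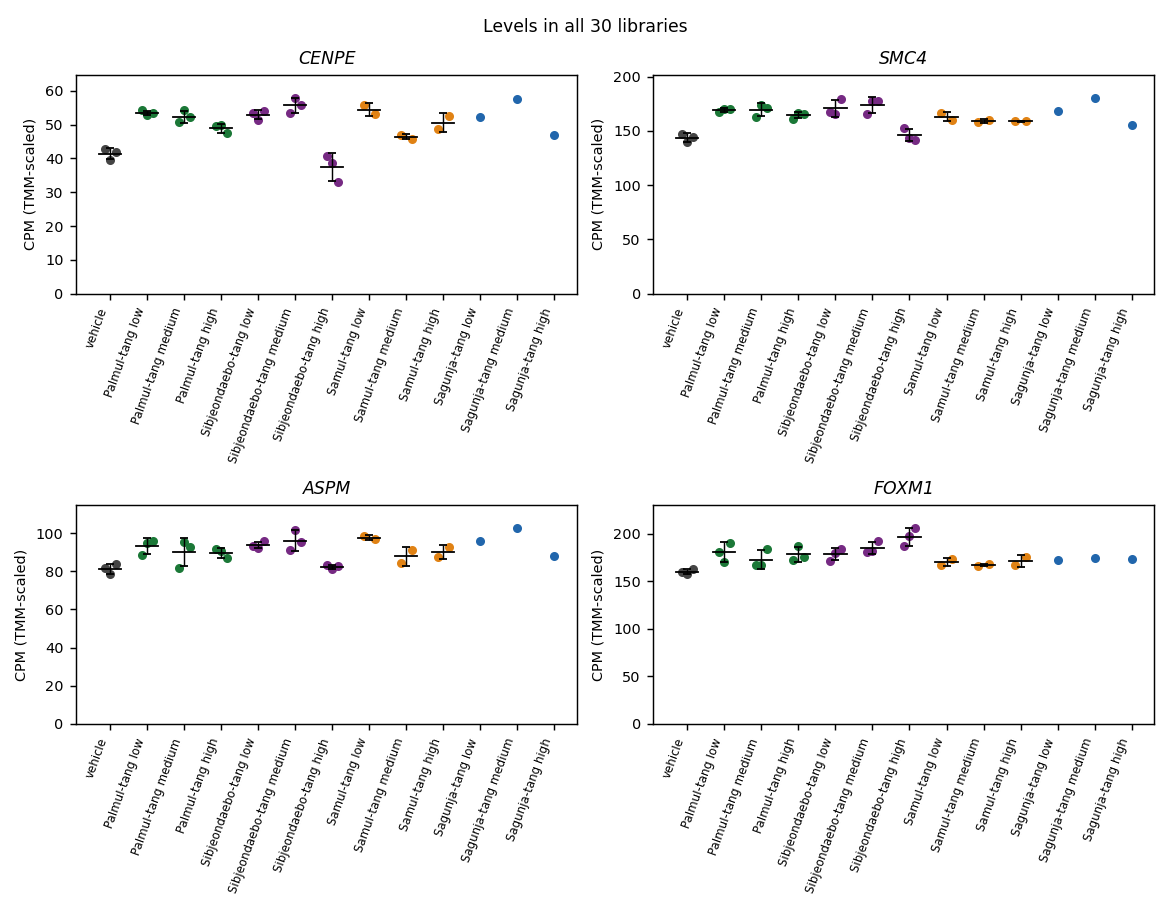
Expression in CPM (vertical axis) of CENPE, SMC4, ASPM and FOXM1 in each of the 30 libraries (points) by group, with the mean and SD of groups of 2 or more libraries. The 3 high-dose Sibjeondaebo-tang libraries are lowest for CENPE (32.99 to 40.84 CPM) and highest for FOXM1 (187.5 to 205.9 CPM) among the doses of that formula.

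Sibjeondaebo-tang against Palmul-tang at matched doses, within a column set, compared the formula with added herbs with the one it extends. At the high dose 0 members were called higher and 2 lower, beside 1.75% and 4.72% of all genes. Neither member count exceeded its background share. CENPE averaged 37.46 CPM with Sibjeondaebo-tang and 48.94 CPM with Palmul-tang, a difference of -0.39 (SE 0.0580, adjusted p = 2.48e-05, edgeR; held). SMC4 averaged 146 and 164.4 CPM, a difference of -0.17 (SE 0.0439, adjusted p = 0.013). The mitochondrial share of counts was 17.2% to 19.4% with high-dose Sibjeondaebo-tang and 14.9% to 16.9% with high-dose Palmul-tang, without overlap, and its part here was not tested. The SMC4 call ended without Sibjeondaebo-tang high replicate 2 (0.0599) or 3 (0.056). Over all genes 282 were higher and 759 lower, and 148 and 839 under median-of-ratios scaling. At the medium dose no member was called, beside 0% higher and 0.0311% lower of all genes, and differences ran from -0.14 to 0.17. There 1 member was higher and 1 lower at an unadjusted p under 0.05, beside 444 and 571 of all 16083 genes. At the low dose no member was called, beside 0% and 0% of all genes. At an unadjusted p under 0.05, 0 members passed in either direction, beside 159 higher and 179 lower of all 16083 genes. Low-dose differences ran from -0.13 to 0.07, and the widest 95% interval from -0.30 to 0.24.

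The difference between the high and the low dose was itself compared between the formulas. It was more negative with Sibjeondaebo-tang than with Palmul-tang for CENPE (-0.37, SE 0.0804, 95% interval -0.54 to -0.21, adjusted p = 0.0064, edgeR), the only member called, beside 0.0497% higher and 1.95% lower of all genes. The members' count of calls was near these shares. The value for CENPE ran from -0.46 to -0.31 over the alternatives. For SMC4 it was -0.19 (adjusted p = 0.149), not called. SMC4 was called under DESeq2 (-0.20, adjusted p = 0.0364), with the GC and length offset (-0.21, adjusted p = 0.0484) and without Sibjeondaebo-tang high replicate 1 (-0.24, adjusted p = 0.0403), which gave 2 members lower each time. The plot of the high-to-low difference in the formulas sets the members beside the other mitosis genes.

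**Figure D5:**
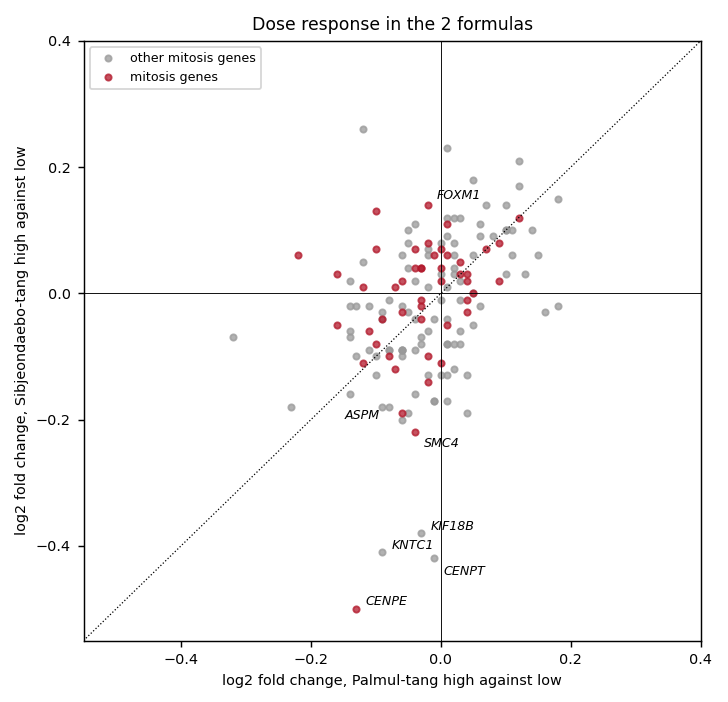
Log2 difference between the high and the low dose with Palmul-tang (horizontal axis) and with Sibjeondaebo-tang (vertical axis) for the 48 members and the 102 other mitosis genes (points), with the dotted line marking equal differences. CENPE lies farthest below the line among the members, at -0.13 and -0.50.

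In the 102 other mitosis genes, 5 were higher and 10 lower at the high than at the low dose of Sibjeondaebo-tang, beside 10.4% and 9.44% of all genes. Those with the smallest adjusted p among the lower were KNTC1, a subunit of the complex that brings dynein to kinetochores (-0.41, adjusted p = 2.66e-07, edgeR), CENPT (-0.42, adjusted p = 4.16e-06), KIF18B (-0.38, adjusted p = 6.02e-06) and RBL2 (-0.20). KNTC1 averaged 47.48 CPM at the high dose, 63.28 at the low dose and 61.37 with vehicle. CENPT averaged 39.0, 52.17 and 46.09 CPM, and KIF18B 44.11, 57.49 and 56.36 CPM. Higher at the high dose were ANAPC1 (0.17), LIN54 (0.21), TRIP13 (0.14) and HJURP (0.15). The list's higher count between these doses was below its background share, and its lower count was near it. Between Palmul-tang doses HJURP (0.18) and CENPI (-0.32) were called, beside 3.75% higher and 3.03% lower of all genes. Against high-dose Palmul-tang, high-dose Sibjeondaebo-tang was lower in CENPT (-0.42), KIF18B (-0.38), KNTC1 (-0.33) and ANAPC4 (-0.19). These were 0 genes higher and 4 lower, beside 1.75% and 4.72% of all genes.

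The single Sagunja-tang libraries lay on both sides of vehicle. At the high dose 25 members lay above and 11 below all vehicle libraries, beside 35.4% and 35.9% of all genes. At the medium dose 34 lay above and 10 below, beside 35% and 34.3%, and at the low dose 31 and 10, beside 33.2% and 34.2%. The median log2 ratios of the members to the vehicle mean were 0.07, 0.18 and 0.13. ANLN was 146.5, 166.8 and 157.2 CPM from the high to the low dose, log2 ratios of 0.24, 0.42 and 0.34. CENPE had ratios of 0.18, 0.47 and 0.33, and TTK of 0.04, 0.43 and 0.21. ESPL1 (-0.17, -0.26 and -0.29), CDCA8 (-0.22, -0.19 and -0.16) and CCNB1 (-0.07, -0.08 and -0.23) lay below vehicle. Between the high and the low dose, NUSAP1 (-0.30) and MKI67 (-0.29) differed most downward and MAD2L1 (0.37) most upward. With 1 library a dose these differences have no replicate check.

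The members did not vary as 1 block. Over the 30 libraries, the Pearson correlation of a member's log2 CPM with the mean of the other members was highest for DLGAP5 (0.82), HMMR (0.76) and KIF20A (0.74). It was lowest for CDC25B (-0.65) and ESPL1 (-0.43). The genes outside the set most like the mean of the members were RDH11 (r = 0.81), ERI2 (0.79), ATAD2 (0.79), PMPCB (0.76) and HSP90B1 (0.76). All these values are descriptions over libraries that share groups and column sets.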

How the data were processed

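The authors deposited 1 table of expected counts per Ensembl gene for 30 libraries of HepG2 cells, which the submitters' processing notes tie to STAR 2.7.3a, RSEM 1.3.3, Trim Galore 0.6.5 and FastQC 0.11.9 and to hg38/GRCh38. Which annotation was used: not given in the sources used here. Libraries were directional, per the labels' protocols. The table's 240 columns of no sample in this series were not used. The deposited expected counts, of which 8.56% were not whole, were rounded to whole numbers. Reads shared between near-identical genes are split by estimation in such counts.

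Gene symbols came from a table matching 56558 rows, 41209 with a symbol. Genes passed edgeR's filterByExpr by group (minimum count 10, minimum total 15), which left 16083. They were scaled by TMM and tested with edgeR 4.0.16 (quasi-likelihood, robust, R 4.3.3) in 1 fit over 27 libraries of 10 groups, without the single Sagunja-tang libraries, leaving 17 residual degrees of freedom. The biological coefficient of variation was 5.47%. Tests are two-sided, with Benjamini-Hochberg adjustment over all 16083 genes and a threshold of 0.05. Standard errors are the log2 fold change divided by the root of the F statistic. Levels are CPM with TMM factors over the 30 libraries, and log2 CPM uses a prior count of 2. Levels per kilobase use 1 principal transcript a gene. Library totals set the counting precision, and ran from 21570416 to 37707232.

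The members and lists were chosen with earlier results of these data known. The text names any of the 48 members, with 12 looked up first in each comparison, then up to 8 called members a direction by smallest adjusted p. From each other list it names up to 4 a direction per comparison, and up to 5 genes most like the members. A result for 1 gene of the other lists is not reported here. The steps were tested on simulated data. Alternatives were DESeq2 1.42.0, median-of-ratios scaling, no filter, the compared groups alone, a replicate block, a GC and length offset, both together, and leaving out each library in turn.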

Additional observations from a re-analysis of the deposited data

Results flagged for a closer look

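The difference between the high and the low dose differed between Sibjeondaebo-tang and Palmul-tang, by a test of that difference itself in edgeR over all genes, for 1 of the 48 members and 4 genes of the other lists. For CENPE it was -0.37 on the log2 scale (adjusted p = 0.0064). Of the 6 kinetochore and centromere members 5 were not called, and the median of the 6 was 0.01. Among the listed other kinetochore and centromere genes, KNTC1 (-0.32, adjusted p = 0.00797) and CENPT (-0.41, adjusted p = 0.00467) were called and the rest were not. The value was -0.35 for the spindle motor gene KIF18B (adjusted p = 0.0091). For ORC6, a subunit of the replication origin complex, it was -0.29 (adjusted p = 0.0354). In all the genes named here the value was more negative with Sibjeondaebo-tang, as it was in 314 of the 322 genes called. Those 314 were 1.95% of all tested genes, and 0.0497% were called in the other direction. The members' count was near the background share. No group held 4 or more libraries, so single libraries were not tested for standing apart.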

How the results depend on the processing

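No called member difference changed sign under the alternatives, which were not followed for single members that were not called. The genes of the other lists, S phase genes and those flagged above included, were not followed under the alternatives. Every call that held with each library left out was also kept under the other settings, except BUB1B (adjusted p = 0.0704, edgeR) and ANLN (0.0815) with medium-dose Samul-tang, fitted on the compared groups alone. The counts that moved by more than 1.5 times are given here, and the causes were not tested unless a smaller number of samples or genes made the change. Under DESeq2, Sibjeondaebo-tang high against low had 0 members higher, and the comparison of dose differences had 2 lower (CENPE and SMC4). Median-of-ratios scaling gave 0 higher in Sibjeondaebo-tang high against low. With no filter on low counts, the lower count was 6 with high-dose Palmul-tang, 5 with low-dose Sibjeondaebo-tang and 1 with medium-dose Samul-tang against vehicle. It was 1 (BIRC5) in Palmul-tang high against low. The higher count was then 0 in Sibjeondaebo-tang high against low and 1 (BIRC5) in Sibjeondaebo-tang against Palmul-tang at the high dose. The GC and length offset gave 2 lower (CDCA8 and NCAPD2) in Palmul-tang high against low, 4 lower in high-dose Sibjeondaebo-tang against Palmul-tang (CENPF and ASPM added), and 2 lower in the comparison of dose differences. The compared groups alone gave 10 higher with high-dose Samul-tang, 0 higher and 0 lower with medium-dose Samul-tang, and 5 lower in Sibjeondaebo-tang high against low (NUSAP1 and KIF23 added).

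With 1 library left out, the higher and lower counts against vehicle ran from 10 to 16 and 5 to 10 for high-dose Palmul-tang, 12 to 17 and 2 to 5 for medium-dose, and 10 to 19 and 4 to 7 for low-dose. For low-dose Sibjeondaebo-tang they ran from 9 to 14 and 5 to 7. For Samul-tang they ran from 3 to 7 and 1 to 3 at the high dose, 3 to 18 and 0 to 4 at the medium dose, and 3 to 10 and 0 to 4 at the low dose. The higher count in Sibjeondaebo-tang high against low ran from 0 to 1, the lower count in high-dose Sibjeondaebo-tang against Palmul-tang from 1 to 3, and that of the dose differences from 1 to 2. A group left with 1 library is assumed to vary like the others.

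The main fit did not pair samples by replicate number. Same-numbered libraries correlated at -0.32 to 0.06 in low-dose Palmul-tang against vehicle. Only comparisons with 2 pairs, those of Samul-tang, had every pair over 0.1, with 0.32 in Samul-tang high against low. There both groups held 2 libraries, so the pairs must give the same value, and pairing of the Samul-tang libraries is not settled. With a replicate block, high-dose Sibjeondaebo-tang against Palmul-tang had 2 members higher (BIRC5 and FOXM1). With the replicate block and the offset together there were 2 lower in Palmul-tang high against low, 5 lower in Sibjeondaebo-tang high against low, and 2 higher and 4 lower in high-dose Sibjeondaebo-tang against Palmul-tang.

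Over all genes, medium-dose Samul-tang against vehicle had 3188 calls, and 261 with the groups alone. Medium-dose Sibjeondaebo-tang against Palmul-tang had 5, and 26 under DESeq2, 168 with no filter, 26 with the block and 23 with block and offset. The low-dose comparison had 0, and 72 with no filter and 3 with the groups alone. Samul-tang high against low had 229, and 376 with no filter and 344 with block and offset. The dose differences had 322, and 562 with no filter.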
